A study of Mus musculus with 10 samples.

Results

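The sterol and fatty acid synthesis genes are 31 genes whose products build cholesterol or long fatty acids, or sense and carry sterols, and most of them are known targets of the transcription factors SREBP2 (18 sterol genes) or SREBP1 (13 fatty acid genes). A gene was represented by the brightest probe set that the platform annotation gives to that gene alone, judged by the mean over all arrays. This gave 30 of the 31 genes, 17 sterol and 13 fatty acid genes, out of 18193 genes with such a probe set. Acat2 was not analysed here. All 30 were bright enough to be among the 12633 genes tested. The tested RNA came from BMEL cells, a bipotential liver line from mouse embryos that can take on hepatocyte or bile duct features. It was hybridised to 10 single-colour Affymetrix arrays, 5 from cells given an antisense inhibitor of miR-30a made of locked nucleic acid and 5 from cells given a scrambled oligonucleotide. Both were delivered with Oligofectamine, a lipid transfection reagent. The labels give neither the sequence and dose of the oligonucleotides nor the time between transfection and harvest, and they do not say whether the 5 replicates were separate cultures, so the p-values rest on variation among these samples that could be technical. The miR-30a level itself was not measured on these arrays, and 1 cell line was used.

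SREBP1 and SREBP2 are made as precursors anchored in the endoplasmic reticulum together with the escort protein SCAP. When sterols are scarce, SCAP carries them to the Golgi, where proteases release the active factor. When sterols are plentiful, INSIG proteins hold SCAP back, and Insig1 is itself an SREBP target, so its transcript is often read as a gauge of the pathway. Hepatocytes use both pathways to supply membranes, bile acids and lipoproteins, and in mouse liver the miR-30 family member miR-30c has been linked to lipid synthesis and lipoprotein secretion.

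The mature strands of miR-30a are shown with those of miR-30c and miR-30e that share the seed of its 5p strand, because an antisense oligonucleotide is defined by the strand it pairs with and the labels do not name the arm. The sequences are from RefSeq on build GRCm38.p6, 5′ to 3′, with the seed (bases 2 to 8) in capitals. The seed is the same in the 3 strands named 5p and different in the 3p strand of miR-30a.
mmu-miR-30a-5p: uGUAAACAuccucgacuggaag
mmu-miR-30a-3p: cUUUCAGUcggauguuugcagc
mmu-miR-30c-5p: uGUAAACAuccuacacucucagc
mmu-miR-30e-5p: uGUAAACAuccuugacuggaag

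No sterol or fatty acid synthesis gene differed between antisense and scrambled arrays past the threshold. Of the 30 genes none passed a limma adjusted p of 0.05, against 1.53% of all genes tested, and none passed with the replicate number as a block, against 3.05% of all genes. Most changes nevertheless lay on the low side. The log2 change, antisense minus scrambled, was below 0 for 14 of 17 sterol genes (median -0.073) and for 11 of 13 fatty acid genes (median -0.032), while 44.9% of all genes tested lay below 0 and their median was 0.0084. The changes were small. The largest in size was -0.17 (Insig1), and the 95% intervals of the 30 changes reached no lower than -0.35 (Acss2) and no higher than 0.15 (Nsdhl). Without adjustment for the number of genes, 3 of the 30 had a limma p under 0.05 (Insig1, Dhcr7 and Mvd), against 12.9% of all genes tested, so the share was no higher than over all genes. All 3 were lower in antisense arrays, against 4.50% of all genes tested that were lower with such a p. With the replicate block there were 5 of 30, against 17.2% of all genes in either direction, and all 5 were lower, against 6.45% of all genes. In RNA from a whole culture, fewer cells with a transcript and less of it per cell cannot be told apart.

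**Figure D1:**
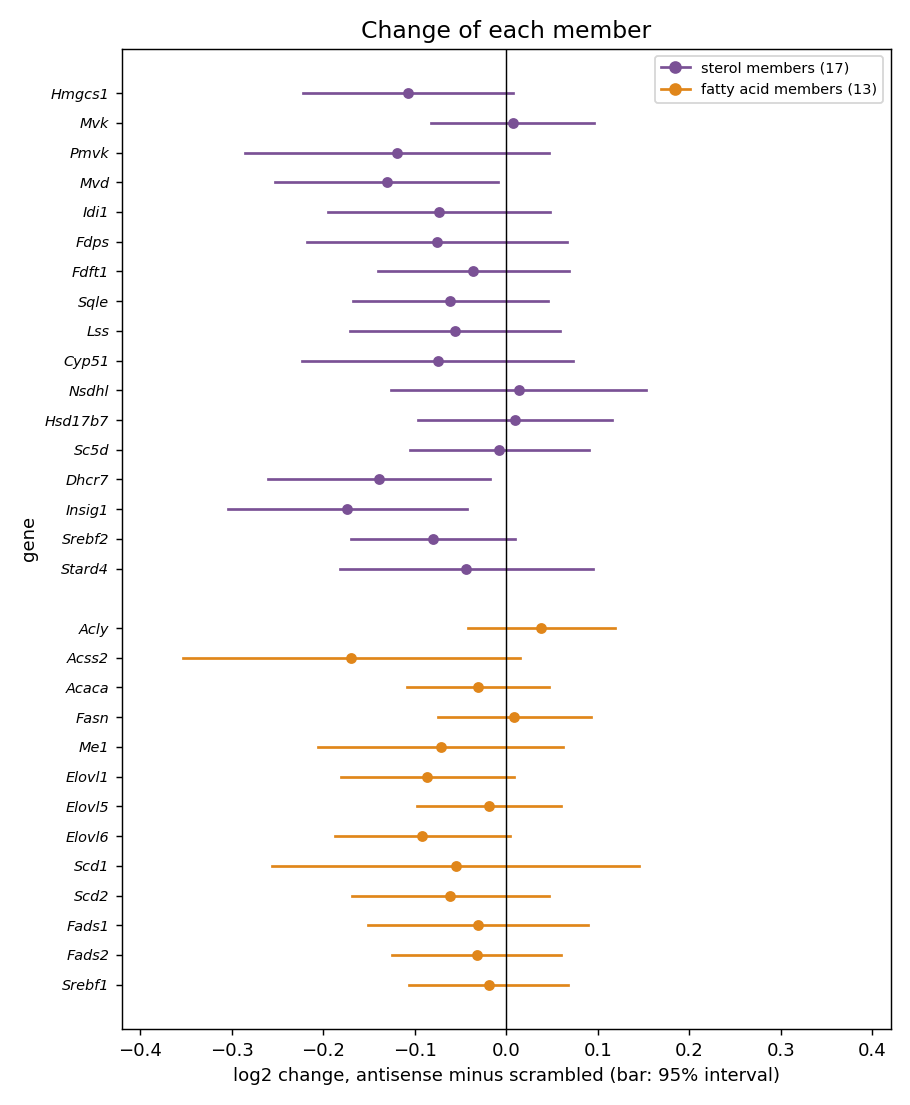
Log2 change (antisense minus scrambled) of the 17 sterol genes (purple) and the 13 fatty acid genes (orange), each with its 95% interval from limma as a bar. Of the 30 points 25 lie below 0, and the bars of Mvd, Dhcr7 and Insig1 do not reach 0.

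The first part of sterol synthesis makes mevalonate and turns it into farnesyl diphosphate, and 5 of its 6 measured genes had a change below 0. Hmgcs1, the HMG-CoA synthase that feeds the pathway, had log2 values of 12.18, 12.00, 12.13, 12.26 and 12.25 in antisense arrays 1 to 5, against 12.35, 12.26, 12.26, 12.18 and 12.31 in scrambled arrays 1 to 5. The groups overlapped, since the highest antisense arrays stood above the lowest scrambled array. Its mean was 12.16 ± 0.10 in antisense and 12.27 ± 0.062 in scrambled arrays (SD, n = 5 each), a change of -0.11 (SE 0.053, limma adjusted p = 0.426). Mvd, the decarboxylase that makes isopentenyl diphosphate, had values of 9.02, 8.94, 9.10, 9.10 and 9.28 in antisense arrays 1 to 5, against 9.30, 9.20, 9.19, 9.21 and 9.20 in scrambled arrays 1 to 5. Antisense arrays 1 to 4 lay below every scrambled array and antisense array 5 did not. The change of Mvd was -0.13 (SE 0.056, limma adjusted p = 0.343). Pmvk, the kinase just before Mvd, was at -0.12 (SE 0.077) and at -0.044 without antisense array 2, which stood at 8.76 with the other antisense arrays between 9.06 and 9.26. The change of Hmgcs1 was -0.068 without antisense array 2. Fdps, which makes farnesyl diphosphate, was at -0.076, and at -0.017 without antisense array 2. Idi1, which isomerises isopentenyl diphosphate, was at -0.073, and at -0.024 without scrambled array 1. Mvk, the mevalonate kinase, was at 0.0072 (95% interval -0.082 to 0.096).

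In the second part, which joins farnesyl units into squalene and converts it to cholesterol, 6 of 8 genes had a change below 0 and most of these were close to 0. Dhcr7, the reductase of the last step to cholesterol, had values of 8.40, 8.18, 8.45, 8.37 and 8.39 in antisense arrays 1 to 5, against 8.61, 8.42, 8.55, 8.49 and 8.42 in scrambled arrays 1 to 5. Antisense array 3 alone lay within the scrambled range. The change of Dhcr7 was -0.14 (SE 0.056, limma adjusted p = 0.305). The lanosterol demethylase gene Cyp51 was at -0.075, the squalene epoxidase gene Sqle at -0.061, the lanosterol synthase gene Lss at -0.056, the squalene synthase gene Fdft1 at -0.036 and the sterol desaturase gene Sc5d at -0.0074. The highest change among the sterol genes was that of Nsdhl, a dehydrogenase that takes part in removing methyl groups from sterols. Its values were 10.27, 9.95, 10.24, 10.15 and 10.36 in antisense arrays, against 10.19, 10.13, 10.14, 10.21 and 10.22 in scrambled arrays. Both the lowest and the highest value came from antisense arrays, and the change was 0.014 (95% interval -0.13 to 0.15). Hsd17b7, a ketosteroid reductase of the same demethylation, was at 0.0097, with its other probe sets above the filter at 0.075 and 0.16.

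Among the regulators and carriers of sterols all 3 genes had a change below 0. Insig1, which retains SREBP in the endoplasmic reticulum, had values of 9.73, 9.49, 9.74, 9.73 and 9.74 in antisense arrays 1 to 5, against 9.99, 9.78, 9.85, 9.77 and 9.91 in scrambled arrays 1 to 5. Every antisense array lay below every scrambled array, and Insig1 was the only gene of the 30 whose groups did not overlap, against 3.92% of all genes tested. The gap between the groups was narrow, from 9.74 to 9.77. The mean of Insig1 was 9.68 ± 0.11 in antisense and 9.86 ± 0.094 in scrambled arrays (SD, n = 5 each), which is 0.887 of the scrambled level (change -0.17, SE 0.060, 95% interval -0.30 to -0.043). The limma adjusted p was 0.222, and 0.0880 with the replicate block. Srebf2, which encodes SREBP2, was at -0.080 (SE 0.041, limma adjusted p = 0.457), and Stard4, a cytosolic sterol carrier, at -0.044 (SE 0.064). A second Srebf2 probe set was at 0.096, and the other Stard4 probe sets were at -0.18 and -0.14.

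The sterol genes share their main regulator. The 250 bases before each listed start of a gene were therefore searched on both strands for letters of factors known to act with SREBP. A gene with several starts counted as holding the letters if any start did, for members and for all tested genes. The starts of Dhcr7, Pmvk, Elovl1, Me1 and Srebf1 differed in whether they held CCAAT. Those of Dhcr7, Me1 and Srebf1 differed in GGGCGG, and those of Dhcr7 also in CACGTG. RefSeq promoter sequences (GRCm38.p6) were found for 13 sterol and 10 fatty acid genes of the 30. CCAAT, the letters bound by the factor NF-Y, was present in 13 of 13 sterol genes, 6 of 10 fatty acid genes and 40.1% of the 10220 tested genes with a promoter. GGGCGG, bound by Sp1, was present in 12 of 13 sterol genes, 6 of 10 fatty acid genes and 62.1% of tested genes. The E-box letters CACGTG were present in 4 of 13 sterol genes, 1 of 10 fatty acid genes and 9.79% of tested genes. The sterol regulatory element letters TCACNCCAC were present in 1 of 13 sterol genes (Hmgcs1), in none of the 10 fatty acid genes and in 1.27% of tested genes. A match is a description of letters in this window and no evidence of binding.

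The promoters of Insig1 and Nsdhl are shown because they had the lowest and the highest change among the sterol genes. Those of Acss2 and Acly hold the same places among the fatty acid genes, and Hmgcs1 holds the only sterol regulatory element letters. Capitals mark TCACNCCAC, CACGTG and CCAAT on either strand (CCAAT reads ATTGG on the other strand), and in these windows no match overlaps another of these 3. Acly holds none of the 3. The windows lie on the + strand at chr5:28071162-28071411 (Insig1), chrX:72918271-72918520 (Nsdhl), chr2:155517793-155518042 (Acss2) and chr13:119690101-119690350 (Hmgcs1), and on the - strand at chr11:100528001-100528250 (Acly).
Insig1: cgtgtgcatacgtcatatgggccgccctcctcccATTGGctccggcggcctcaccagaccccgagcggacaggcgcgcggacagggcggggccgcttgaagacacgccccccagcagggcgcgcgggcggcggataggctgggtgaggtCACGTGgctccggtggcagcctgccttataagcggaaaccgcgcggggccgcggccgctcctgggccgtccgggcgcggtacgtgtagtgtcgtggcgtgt
Nsdhl: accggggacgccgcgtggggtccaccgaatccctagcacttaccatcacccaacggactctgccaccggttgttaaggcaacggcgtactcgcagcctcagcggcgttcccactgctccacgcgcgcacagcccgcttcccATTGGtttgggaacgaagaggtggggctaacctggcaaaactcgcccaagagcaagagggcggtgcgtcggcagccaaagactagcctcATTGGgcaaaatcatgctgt
Hmgcs1: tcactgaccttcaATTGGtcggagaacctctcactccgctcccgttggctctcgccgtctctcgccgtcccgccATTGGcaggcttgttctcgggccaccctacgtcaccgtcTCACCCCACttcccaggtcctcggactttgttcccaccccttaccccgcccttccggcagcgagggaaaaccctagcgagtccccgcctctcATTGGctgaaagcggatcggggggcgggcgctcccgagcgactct
Acss2: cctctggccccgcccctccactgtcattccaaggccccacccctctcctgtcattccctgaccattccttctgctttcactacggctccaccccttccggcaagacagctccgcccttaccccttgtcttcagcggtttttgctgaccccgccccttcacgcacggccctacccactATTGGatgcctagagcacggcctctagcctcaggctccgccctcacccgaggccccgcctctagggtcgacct
Acly: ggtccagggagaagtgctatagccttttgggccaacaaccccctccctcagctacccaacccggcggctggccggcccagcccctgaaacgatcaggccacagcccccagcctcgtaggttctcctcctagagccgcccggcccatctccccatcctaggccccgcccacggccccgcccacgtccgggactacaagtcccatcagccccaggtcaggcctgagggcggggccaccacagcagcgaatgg

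Of the 5 enzyme genes that supply acetyl-CoA and NADPH and build the fatty acid chain, 3 had a change below 0 and their median was -0.031. Acss2, which makes acetyl-CoA from acetate, had the lowest change of the fatty acid genes. Its values were 6.18, 5.82, 6.24, 6.17 and 6.20 in antisense arrays 1 to 5, against 6.51, 6.13, 6.23, 6.28 and 6.31 in scrambled arrays 1 to 5. Antisense array 2 was far below and scrambled array 1 far above the other 8, which lay between 6.13 and 6.31. The change of Acss2 was -0.17 (SE 0.085, 95% interval -0.35 to 0.015, limma adjusted p = 0.438), and a second probe set of the gene was at 0.0038. Without antisense array 2 the change was -0.093. Acly, which makes acetyl-CoA from citrate, had values of 11.01, 11.02, 11.05, 11.00 and 10.97 in antisense arrays, against 11.03, 11.00, 10.97, 10.90 and 10.95 in scrambled arrays. Its groups overlapped, and its change of 0.038 (SE 0.037) was the highest of the 30. Fasn, the synthase that makes palmitate, was at 0.0089 (95% interval -0.075 to 0.093) and Acaca, the carboxylase that supplies malonyl-CoA, at -0.031 (95% interval -0.11 to 0.046). Me1, the malic enzyme that supplies NADPH, was at -0.071 (SE 0.062).

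All 3 elongases and all 4 desaturases had a change below 0, and each 95% interval reached above 0. Elovl6, which extends palmitate, had values of 9.73, 9.65, 9.79, 9.82 and 9.83 in antisense arrays 1 to 5, against 9.92, 9.88, 9.81, 9.82 and 9.86 in scrambled arrays 1 to 5. Antisense arrays 1 to 3 lay below every scrambled array. The change of Elovl6 was -0.092 (SE 0.044, limma adjusted p = 0.415), with its other probe sets above the filter at -0.11 and -0.076. Elovl1, which extends very long saturated chains, was at -0.086 (SE 0.044, limma adjusted p = 0.441), and Elovl5, which extends polyunsaturated chains, at -0.019 (SE 0.036). The stearoyl-CoA desaturase genes Scd1 and Scd2 were at -0.055 (SE 0.093) and -0.061 (SE 0.050). A second Scd1 probe set was at 0.15, and the other Scd2 probe sets at -0.10 and 0.14. The polyunsaturated fatty acid desaturase genes Fads1 and Fads2 were at -0.031 and -0.032. Srebf1, which encodes SREBP1, had values from 8.73 to 8.91 in antisense arrays, against 8.80 to 8.87 in scrambled arrays, and a change of -0.019 (SE 0.040).

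**Figure D2:**
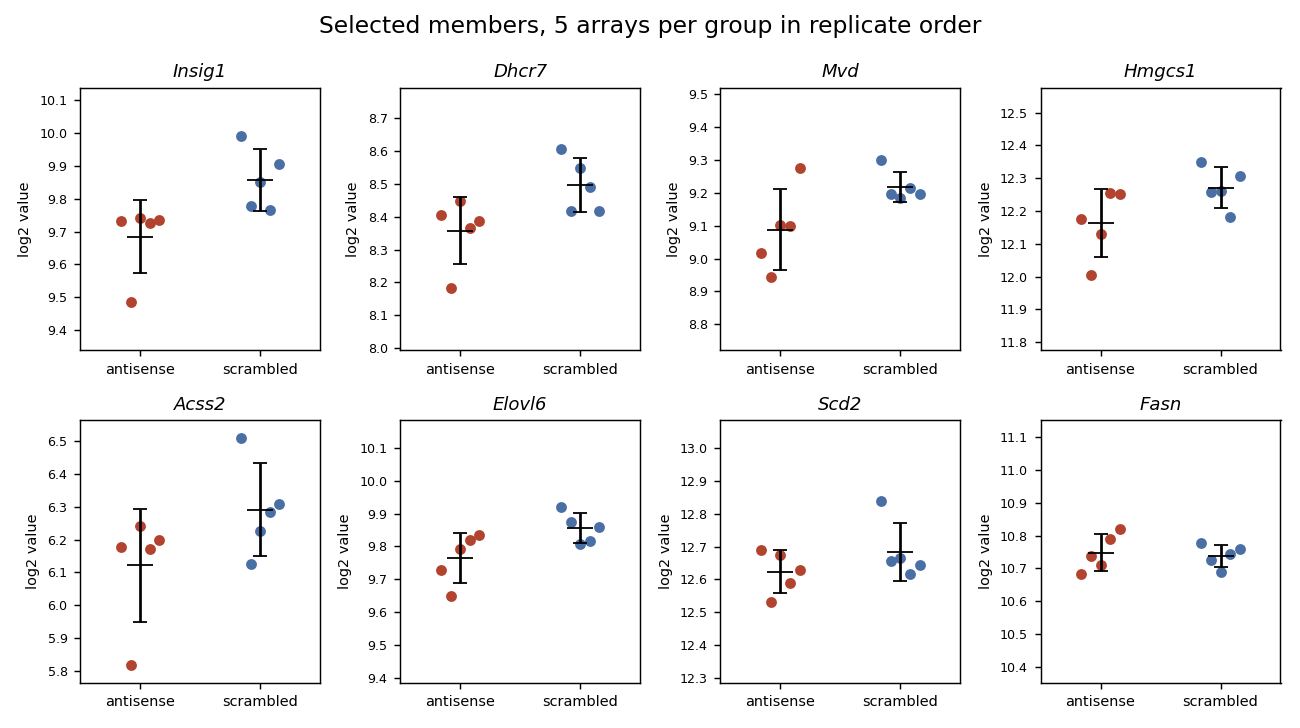
Log2 values of 8 of the genes, with the 5 antisense arrays (red, left) and the 5 scrambled arrays (blue, right) drawn in replicate order, the black line and bar giving mean ± SD. Every panel spans the same height of 0.8 log2 units, and Insig1 is the only panel in which no antisense point reaches the scrambled points.

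Antisense array 2 and scrambled array 1 stood apart from the other arrays in both gene groups. Antisense array 2 gave the lowest of the 10 values for 12 of 17 sterol genes and 8 of 13 fatty acid genes, against 16.6% of all genes tested. It lay below the mean of the 10 arrays for 17 of 17 sterol genes and 11 of 13 fatty acid genes, and for 48.9% of all genes. Scrambled array 1 gave the highest value for 9 of 17 sterol and 7 of 13 fatty acid genes, against 13.2% of all genes tested. The genes differed in how far they went with antisense array 2. The log2 value there minus the mean of the gene was -0.39 for Acss2, -0.39 for Scd1, -0.36 for Pmvk, -0.29 for Insig1 and -0.28 for Fdps. It lay between -0.027 and 0.027 for Sqle, Mvk, Sc5d, Acaca, Fasn, Acly and Me1. Leaving out antisense array 2 moved the change of 16 of the 30 genes by over 1.5 times, and leaving out scrambled array 1 that of 14. Without scrambled array 1 the change was -0.019 for Sqle, -0.034 for Cyp51, -0.022 for Scd2 and -0.026 for Me1. Without antisense array 2 it was -0.019 for Lss and -0.0088 for Fads2. Each of the other 8 arrays moved between 5 and 9 genes as much.

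**Figure D3:**
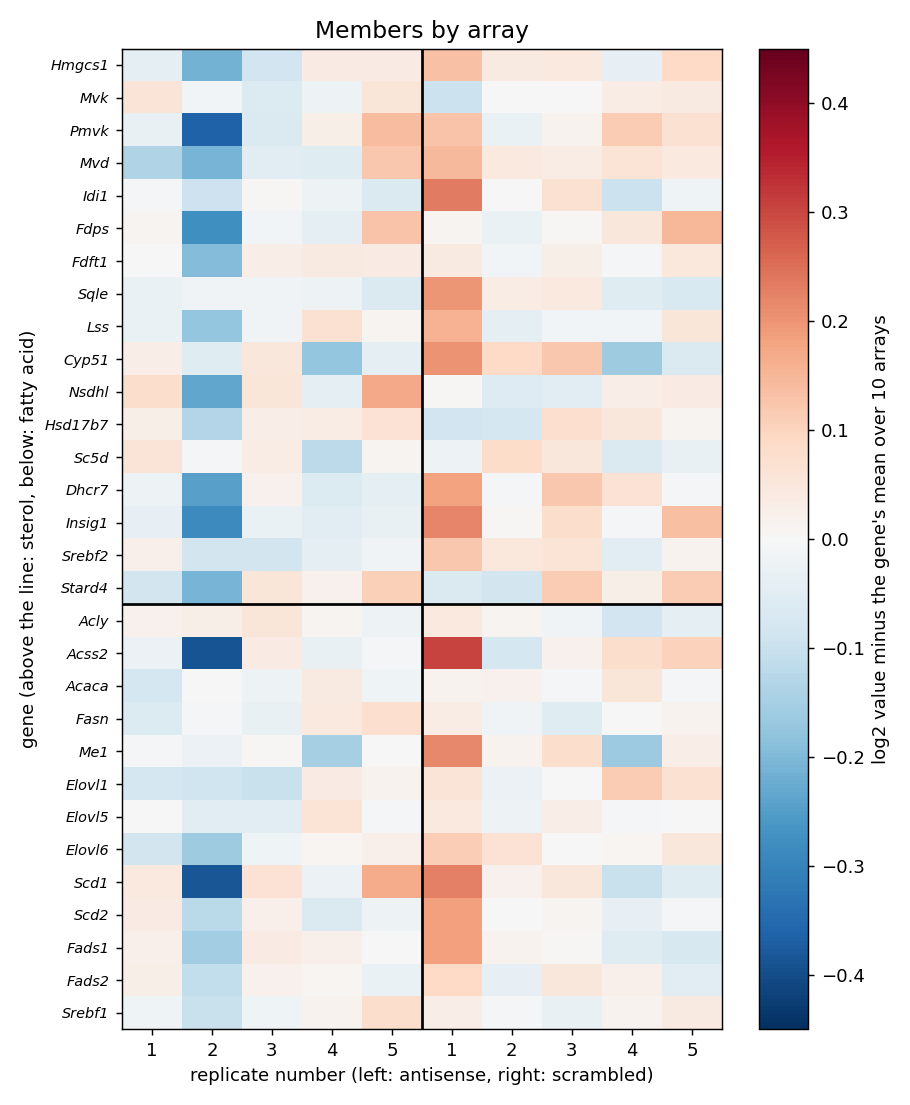
Log2 value of each gene minus its mean over the 10 arrays (blue low, red high), with antisense arrays 1 to 5 on the left and scrambled arrays 1 to 5 on the right, sterol genes above the horizontal line and fatty acid genes below it. Antisense array 2 is blue for all 17 sterol genes, and scrambled array 1 is red for all 13 fatty acid genes.

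Averaged over the 17 sterol genes, antisense arrays 1 to 5 stood at 10.07, 9.91, 10.07, 10.05 and 10.12, against 10.17, 10.08, 10.13, 10.08 and 10.12 in scrambled arrays 1 to 5. The ranges overlapped, and the means were 10.05 ± 0.077 in antisense and 10.11 ± 0.038 in scrambled arrays (SD, n = 5 each). Taken by replicate number, antisense minus scrambled was -0.096, -0.16, -0.056, -0.021 and 0.00043 for numbers 1 to 5, so the difference was widest for numbers 1 and 2 and close to 0 for number 5. The mean difference of -0.068 became -0.035 without antisense array 2 and -0.054 without scrambled array 1. Gene by gene, 13, 17, 15, 11 and 9 of the 17 sterol genes were lower in the antisense array of numbers 1 to 5. For all 12633 genes tested the counts were 6440, 6331, 5928, 5322 and 5334.

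Averaged over the 13 fatty acid genes, antisense arrays 1 to 5 stood at 9.90, 9.80, 9.92, 9.92 and 9.94, against 10.04, 9.92, 9.93, 9.91 and 9.93 in scrambled arrays 1 to 5. The means were 9.90 ± 0.055 in antisense and 9.94 ± 0.054 in scrambled arrays (SD, n = 5 each), a difference of -0.048. By replicate number the difference was -0.13, -0.12, -0.011, 0.010 and 0.014, so the difference was widest for numbers 1 and 2 here too. The mean difference became -0.023 without antisense array 2 and -0.024 without scrambled array 1. Of the 13 fatty acid genes, 13, 11, 6, 5 and 7 were lower in the antisense array of numbers 1 to 5. With the antisense array lower in all 5 same-numbered pairs there were 4 sterol genes (Insig1, Dhcr7, Fdps and Stard4) and 2 fatty acid genes (Acaca and Elovl1), 6 of 30 against 6.67% of all genes tested. No member was higher in all 5 pairs, against 1344 of all 12633 genes tested. Because the members were chosen with results known, no test was made on these means. Whether a property of the RNA or the culture behind antisense array 2 or scrambled array 1 has a part in these differences was not tested.

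**Figure D4:**
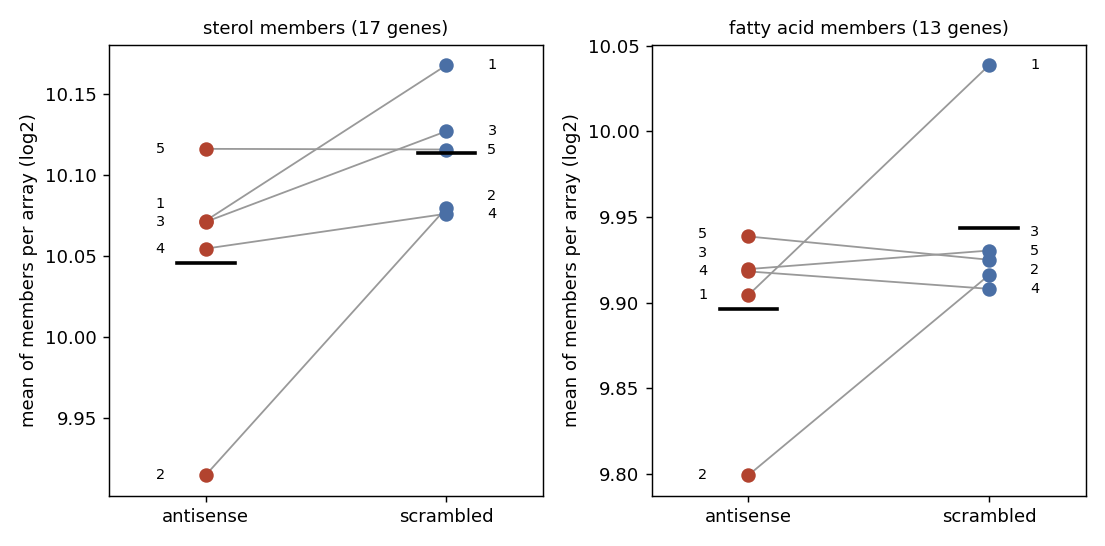
Mean log2 value of the 17 sterol genes (left panel) and the 13 fatty acid genes (right panel) in each array, antisense (red) left of scrambled (blue), with the replicate number beside each point, a line joining same-numbered arrays and a black bar at the group mean. Antisense array 2, at 9.91 and 9.80, lies below all other arrays in both panels, and scrambled array 1, at 10.17 and 10.04, above them.

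The spread between arrays of a group was of the same order as the changes. The median SD of a sterol gene was 0.10 in antisense and 0.069 in scrambled arrays, against 0.080 and 0.083 for all genes tested, and it was 0.059 among antisense arrays without array 2. For the fatty acid genes the median SD was 0.065 in antisense and 0.057 in scrambled arrays. The 30 genes had 36 further probe sets above the filter level, beside the 30 used. Of these 36, 23 had a change below 0 (median -0.037), 14 of 21 for the sterol genes and 9 of 15 for the fatty acid genes. Of the 21 genes with several such probe sets, 9 had them on both sides of 0. Among these were Srebf2 (-0.080 and 0.096) and Scd2 (from -0.10 to 0.14). The 5 Hmgcs1 probe sets all lay below 0, from -0.17 to -0.077, as did both of Mvd (-0.19 and -0.13), while Insig1 and Dhcr7 had 1 probe set each.

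Genes that surround the pathway were grouped in 6 further lists, of which 5, 9, 10, 4, 18 and 18 genes were tested. Of these genes 1 passed the test, against 1.53% of all genes tested. Lpin2, a phosphatidate phosphatase of triglyceride synthesis, had values of 9.14, 8.95, 9.11, 9.15 and 9.18 in antisense arrays 1 to 5, against 9.49, 9.36, 9.32, 9.36 and 9.35 in scrambled arrays 1 to 5. Every antisense array lay below every scrambled array. Lpin2 fell by 0.27 (SE 0.051, limma adjusted p = 0.0207), its other probe sets were at -0.20 and -0.20, and the adjusted p was 0.0556 without antisense array 3. It was the only one of 18 tested triglyceride and lipid droplet genes past the threshold, whose median change was 0.0017. Lipe, the hormone-sensitive lipase gene, was at 0.19 (SE 0.073, limma adjusted p = 0.263) and was dim, at 5.07 in antisense and 4.87 in scrambled arrays. It rose when the replicate number was a block, with a limma adjusted p of 0.0439. Dgat1, an acyltransferase of the last step of triglyceride synthesis, was at -0.094 (SE 0.048, limma adjusted p = 0.441). Antisense array 2 was the lowest for 9 of these 18 genes too.

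None of the 5 tested further sterol synthesis genes passed (median -0.026, 4 below 0, 1 with an unadjusted limma p under 0.05). Ggps1, which makes the geranylgeranyl diphosphate used to lipidate proteins, was at -0.17 (limma adjusted p = 0.252), though its other probe sets were at 0.042, 0.079 and 0.12. Lbr, a sterol reductase of the inner nuclear membrane, was at -0.12, and Msmo1, a sterol demethylation enzyme, at -0.026. Of the 9 tested genes that process or degrade SREBP none passed, and 0 had an unadjusted limma p under 0.05. Scap, the escort of SREBP, was at 0.081 (SE 0.038, limma adjusted p = 0.391), and its antisense array was the higher in each of the 5 pairs. The endoplasmic reticulum proteins Erlin2 and Erlin1 were at -0.061 and -0.048.

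None of 10 genes of sterol uptake, transport and storage passed (median -0.0087, 1 with an unadjusted limma p under 0.05). Scarb1, a lipoprotein receptor, was at 0.090, the lysosomal lipase gene Lipa at -0.11 and the lysosomal cholesterol exporter gene Npc1 at 0.072. None of 4 tested genes of sterol efflux and the sterol-sensing receptor LXR passed (median -0.029, 1 with an unadjusted limma p under 0.05). Cyp27a1, a sterol hydroxylase, was at 0.20 (limma adjusted p = 0.269), Nr1h3, which encodes an LXR, at -0.089 and Mylip, a ubiquitin ligase induced by LXR, at -0.057. None of 18 further fatty acid synthesis genes passed (median -0.016, 0 with an unadjusted limma p under 0.05). The citrate carrier gene Slc25a1 was at -0.098, the elongation reductase gene Hsd17b12 at 0.077 and the mitochondrial acetyl-CoA carboxylase gene Acacb at 0.094. Acacb too was near the filter level, at 4.78 in antisense and 4.69 in scrambled arrays.

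All 9 measured markers of liver progenitors and epithelium were above the filter level. Their list mean lay between 10.50 and 10.58 in antisense arrays and between 10.48 and 10.55 in scrambled arrays. Krt8, Krt18, Krt19, Cdh1, Hnf4a and Epcam averaged lower in antisense arrays. Foxa2, Sox9 and Hhex averaged higher, with Sox9 at 7.36 in antisense and 7.19 in scrambled arrays. None of the 9 passed the threshold in the main fit. Fat cells are a common source of lipid synthesis transcripts. Of 6 measured adipocyte markers 3 were above the filter level (Cidec, Pparg and Retn), and Adipoq, Fabp4 and Lep were below it. Pparg averaged 9.90 in antisense and 9.97 in scrambled arrays, and Cidec 7.83 in antisense and 7.95 in scrambled arrays. The adipocyte list mean lay between 5.61 and 5.81 in antisense arrays and between 5.64 and 5.86 in scrambled arrays. Of 7 measured hepatocyte markers 6 were above the filter level, with a list mean between 5.87 and 6.09 in antisense arrays and between 6.05 and 6.34 in scrambled arrays. Ttr, the transthyretin gene, averaged 7.62 ± 0.57 in antisense and 8.79 ± 0.51 in scrambled arrays (SD, n = 5 each), a change of -1.17 (limma adjusted p = 0.0574), and it fell with the replicate block (limma adjusted p = 0.000812). Without Ttr the list mean lay between 5.65 and 5.73 in antisense arrays and between 5.64 and 5.80 in scrambled arrays. Apoa1 averaged 5.66 in antisense and 5.88 in scrambled arrays (limma adjusted p = 0.213). Apob averaged 9.43 in antisense and 9.28 in scrambled arrays (limma adjusted p = 0.227), and Afp 6.43 in antisense and 6.33 in scrambled arrays. Tat averaged 4.69 in antisense and 4.68 in scrambled arrays, and Cps1 was below the filter level. Alb was near the filter level at 4.70 in antisense and 4.73 in scrambled arrays.

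Of 6 measured markers of blood cells and macrophages 4 were above the filter level (Cd68, Csf1r, Cx3cr1 and Fcgr1), with Ptprc and Adgre1 below it. The list mean lay between 4.79 and 4.88 in antisense arrays and between 4.70 and 4.86 in scrambled arrays. Cd68, a lysosomal protein of macrophages, was higher, at 5.86 in antisense and 5.47 in scrambled arrays (change 0.39, limma adjusted p = 0.0176). Mesenchymal markers had 5 of 8 above the filter level (Acta2, Col1a2, Dcn, Des and Pdgfrb), with Col1a1, Col3a1 and Lrat below it. Their list means ran from 4.40 to 4.60 in antisense and from 4.43 to 4.50 in scrambled arrays. Endothelial markers had 3 of 6 above the filter level (Flt1, Kdr and Erg), with Pecam1, Cdh5 and Tek below it. Flt1 was the brightest, at 8.17 in antisense and 8.27 in scrambled arrays. The endothelial list means ran from 5.10 to 5.20 in antisense and from 5.03 to 5.21 in scrambled arrays. The part of hepatocyte or other cell features in the changes of the sterol and fatty acid genes was not tested. Array medians over all probe sets lay between 5.21 and 5.24.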

How the data were processed

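The authors deposited a log2 expression value for each probe set in each array. The log2 scale was read from the values. How probes were summarised and normalized is not given in the sources used here. The table holds 45101 probe sets, and the platform annotation gives 1 symbol to 34945 of them. The brightest probe set stood for each of 18193 genes, and genes with a mean under 4.559, the 40th percentile of probe sets, were left out, which left 12633. Groups and replicate numbers come from the titles. Antisense was set against scrambled with limma 3.58.1 (R 4.3.3), using lmFit, eBayes and a two-sided test with Benjamini-Hochberg adjustment over all genes tested and a threshold of 0.05. Intervals are at 95% and unadjusted. Precision is limited by the number of arrays. The procedure was tested on simulated data. Figures were drawn with matplotlib 3.10.9.

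To see whether replicate numbers pair the arrays, each array's deviation from its group mean was correlated across the 12633 genes with that of the arrays of the other group. Pearson's r was 0.172, 0.377, 0.112, 0.152 and 0.335 for the same number and from -0.312 to 0.231 for different numbers. Only numbers 2 and 5 had an r above the highest for different numbers, and the labels do not state a pairing. The main fit left replicate numbers out. Same-numbered arrays were paired only in the replicate block and in the comparisons by number.

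The named genes are the 31 members and, of each other list, the 3 genes with the smallest p. Values of every array are given for the lowest and highest change of each group and for further genes chosen after their values were seen. The members and lists were chosen with earlier results of these data known. Other settings tried were the replicate number as a block, quantile normalization, arrays centred on their median, other filters on dim probe sets, other probe sets per gene, a trend in the prior variance and each array left out.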

Additional observations from a re-analysis of the deposited data

Results flagged for a closer look

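In groups of 5 arrays, a value was set apart where its gap to the nearest other array, divided by the range of the group, exceeded 0.71. Chance marks about 1 in 20 groups, and 64 groups were examined, of which 12 were marked. The groups share the same 10 arrays and include means over the same genes. They are not independent, so the count of 12 cannot be judged against that rate. Antisense array 2 was the lowest of its group in 6 of the 12. These were Insig1 (9.49, with the next array at 9.73), Fdft1 (10.76, next 10.95), Hsd17b7 (8.85, next 9.01), Acss2 (5.82, next 6.17), Fads1 (10.35, next 10.50) and the mean of the fatty acid genes (9.80, next 9.90). Scrambled array 1 stood apart in 4, as the highest for Mvd (9.30, next 9.21), Scd2 (12.84, next 12.67) and the mean of the fatty acid genes (10.04, next 9.93) and as the lowest for Mvk (8.44, next 8.54). The other 2 were Sqle in antisense array 5 (11.18, next 11.21) and Me1 in antisense array 4 (11.84, next 11.96).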

How the results depend on the processing

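With the probe set of largest SD, Acaca, Acly and Elovl1 were under the filter level, and 6 of the 10 fatty acid genes left were below 0, against 11 of 13. Their mean difference was then -0.020, against -0.048. None of the 30 genes (without those 3 in that setting) passed the threshold under any alternative run, and their smallest adjusted p lay between 0.0880 (Insig1, replicate block) and 0.375 (without scrambled replicate 1). The count of all genes called was 193, and 385 with the replicate block, 314 with a trend in the prior variance, 115 with the probe set of largest SD and from 92 to 201 with an array left out (95, 92 and 123 without antisense arrays 3, 4 and 5, and 101 without scrambled array 3). Over the alternatives run, the mean difference lay between -0.085 and -0.035 for the sterol genes and between -0.058 and -0.020 for the fatty acid genes. Among single genes, 33 of 537 values for the 30 genes and 4 further values for genes of the other lists changed sign. With the mean of all probe sets these were Fdft1 (0.026), Srebf2 (0.0081), Mvk (-0.019), Scd1 (0.047) and Ggps1 (0.018). With the probe set of largest SD they were Fdft1 (0.17), Srebf2 (0.096), Acss2 (0.0038), Scd1 (0.15), Elovl5 (0.00052), Scarb1 (-0.032) and Dgat1 (0.086). With quantile normalization they were Mvk (-0.0025) and Hsd17b7 (-0.0061), and with arrays centred on their median Mvk (-0.0021) and Fasn (-0.00043). With an array left out the changes ranged from -0.051 to 0.0083 for Fdft1, -0.016 to 0.023 for Mvk, -0.027 to 0.073 for Nsdhl, -0.024 to 0.021 for Sc5d, -0.076 to 0.0034 for Stard4, -0.010 to 0.044 for Hsd17b7, -0.041 to 0.0042 for Srebf1, -0.0090 to 0.025 for Fasn, -0.10 to 0.034 for Scd1, -0.053 to 0.012 for Fads1 and -0.055 to 0.00090 for Msmo1. The causes were not tested. With the replicate block Lipe and Ttr were called, and none of the other genes with an adjusted p given here changed its call with the block.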
